A study of Mus musculus with 18 samples.

Results

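Synaptic vesicle and exocytosis genes were followed in striatum, the brain region that receives the dopamine input on which cocaine acts. Members were the genes whose single annotated symbol is Syt, Stx, Stxbp, Vamp, Snap, Syn, Syp, Sv2, Cplx, Rab3, Rims or Nsf, alone or followed by a digit or paralogue letter. Of 65 such genes on the array, 52 had a probe set (a group of short probes read together) above log2 4 in at least 3 of the 18 arrays. These 52 genes were among 7583 kept genes, and they held 87 of the 12674 kept probe sets. The letters of the rule also take in Rab30, Rab31, Rab33a, Rab33b and Rab34, which are other Rab GTPases and not forms of Rab3, and Snap91, a clathrin adaptor. Without those 5 Rab genes there were 47 members. Each gene is represented by its probe set of highest mean, and other probe sets are given where a result turns on them.

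The study measured striatum, nucleus accumbens included, of littermate mice aged 10 to 20 weeks with 1 Affymetrix array per animal. Control mice and mice mutant for Camk4, which encodes the calcium/calmodulin-dependent kinase CaMKIV, were injected intraperitoneally with cocaine at 25 mg/kg or with saline, and striatum was taken 1 h later. There were 3 control and 3 mutant mice after saline and 6 control and 6 mutant mice after cocaine. All mice were caged singly and handled for 5 days, and the labels state neither the allele nor the cells in which the gene is mutant. The groups rest on the sample titles, because the description lines name other groups and the treatment protocol names cocaine for every sample. The titles number 12 animals in Arabic numerals, 3 from each group, and 6 in Roman numerals, all given cocaine and 3 from each genotype. The meaning of the 2 numbering series is not given in the labels, and the series was a term in every comparison below.

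Transmitter release depends on the SNARE proteins, in which a vesicle protein of the VAMP family zips together with syntaxin and SNAP-25 of the plasma membrane and pulls the membranes into fusion. Synaptotagmins sense calcium, complexins hold and then release the partly zipped complex, and NSF takes spent complexes apart. Synapsins tether vesicles, Rab3 and RIM proteins bring them to the release site, and synaptophysin and SV2A are abundant proteins of the vesicle membrane.

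CaMKIV phosphorylates CREB, a factor that binds the cyclic AMP response element (CRE), so promoter sequence is shown for the 2 members that hold its letters and for 2 of the 5 that hold those of an Egr site. RefSeq promoter windows, 250 bases before to 50 after a gene's start on GRCm38.p6, were found for 41 of the 52 members. The CRE letters TGACGTCA, read on both strands, were in the windows of 2 members, Syn1 and Stxbp3, which is 4.88% of 41 against 2.03% of 27025 genes. The shorter TGACG, which the full CRE contains, was in 13 members, 31.71% against 23.05% of all genes. The Egr letters GCGNGGGCG were in 5 members (Cplx1, Nsf, Stx2, Syn2 and Vamp4), 12.2% against 6.27%, and the AP-1 letters TGANTCA in 2 (Rab34 and Syt2), 4.88% against 8.97%. Below, the matched letters are in capitals and each stretch reads 5′ to 3′ on the strand of the gene.
Syn1: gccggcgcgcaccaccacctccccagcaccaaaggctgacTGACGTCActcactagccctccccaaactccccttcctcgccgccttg
Stxbp3: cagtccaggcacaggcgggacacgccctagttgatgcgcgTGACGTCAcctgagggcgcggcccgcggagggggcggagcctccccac
Nsf: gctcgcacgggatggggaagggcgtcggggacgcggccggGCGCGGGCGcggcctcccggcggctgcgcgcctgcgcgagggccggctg
Syn2: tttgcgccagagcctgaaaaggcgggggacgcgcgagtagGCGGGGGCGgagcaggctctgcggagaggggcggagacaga
The Syn1 stretch lies on the minus strand at chrX:20921030-20921117, with the CRE letters at -159 to -152 from the start. The Stxbp3 stretch is at chr3:108840563-108840650 on the minus strand, with the letters at -108 to -101. The Nsf stretch is at chr11:103954060-103954148 (minus strand) and the Syn2 stretch at chr6:115134821-115134901 (plus strand). A match is a description of letters and not a bound site.

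Arrays differed in quality along the numbering series. The difference between the 3′ and 5′ actin control probe sets, which rises as RNA or its labelling shortens, averaged 2.08 ± 0.20 (SD, n = 3) in control saline and 2.31 ± 0.09 (n = 3) in mutant saline arrays. It was 2.43 ± 0.19 and 2.33 ± 0.16 in the Arabic-numbered control and mutant cocaine arrays (n = 3 each) and 1.73 ± 0.17 in the Roman-numbered control cocaine arrays (n = 3). Mutant cocaine replicate 5, a Roman-numbered array, stood at 3.59, against 1.63 and 1.68 in the other mutant Roman-numbered arrays. Values without that array are given below beside the results it moved. All 11 neuron markers listed were kept. Of 14 markers of medium spiny neurons, the main striatal cell type, 9 were kept, and those not above the level used included Drd1 and Adora2a. Of 8 cortical markers, 2 were kept. In whole tissue, fewer cells of a type and less RNA per cell cannot be told apart.

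Camk4 itself checks the genotype labels. Its brightest probe set read 7.72, 7.59 and 7.64 (log2) in control saline and 7.29, 7.14 and 7.47 in mutant saline. After cocaine it ran from 7.52 to 7.76 in controls and from 6.85 to 7.69 in mutants, and only mutant cocaine replicate 6 lay within the control range. The averaged difference between genotypes was -0.37 ± 0.09 (SE; limma adjusted p = 0.611), so Camk4 did not pass the threshold over all probe sets. The other kept Camk4 probe set differed by -0.49 ± 0.27 (limma adjusted p = 0.679). Its genotypes overlapped after cocaine, with controls from 5.46 to 7.00 and mutants from 3.80 to 6.10. After saline it ran from 5.36 to 5.65 in controls and from 5.26 to 5.36 in mutants. Whether its probes lie inside the mutated part of the gene is not given in the sources used here.

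In all 18 arrays, no vesicle or exocytosis gene passed the test for cocaine. After cocaine against saline, averaged over genotypes, 0 of 52 members had a limma adjusted p under 0.05, where 0.221% of all kept probe sets did, and 0 members had an unadjusted p under 0.05, against 5.09% of all probe sets. In control mice alone 0 of 52 were called (0.11% of all probe sets), with 0 members at an unadjusted p under 0.05 against 2.6% of all probe sets. In mutant mice 0 of 52 were called (0.0473%), with 2 members, or 3.85%, at an unadjusted p under 0.05 against 6.95%. Without mutant cocaine replicate 5 the members at an unadjusted p under 0.05 were 2 averaged, 1 in control and 6 in mutant mice. The share of all probe sets at that cut was not computed for this fit, so these counts have no background beside them. The median member difference was 0.03 log2 when averaged over genotypes, against 0.01 over all kept genes, with 31 members higher and 21 lower. An ordinary linear model called 0 members as well in each of these comparisons.

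Genes of the fusion machinery differed little between groups. Snap25, the plasma membrane SNARE of fast release, read 14.22, 14.15 and 14.27 in control saline and 14.17, 14.11 and 14.23 in mutant saline. After cocaine the lowest, median and highest Snap25 values were 14.15, 14.21 and 14.31 in controls and 13.82, 14.10 and 14.32 in mutants. The lowest was mutant cocaine replicate 5, and the groups overlapped. The averaged cocaine difference of Snap25 was -0.06 ± 0.06 (SE).

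Stx1a, the syntaxin partner of SNAP-25, read 9.06, 8.90 and 8.88 in control saline and 9.06, 8.73 and 9.11 in mutant saline. After cocaine its lowest, median and highest values were 8.67, 8.91 and 9.12 in controls and 8.77, 9.19 and 9.67 in mutants, with overlap. Its averaged cocaine difference was 0.16 ± 0.12 (SE). Over the 11 syntaxins the averaged cocaine differences ran from -0.15 (Stx7, an endosomal syntaxin) to 0.16 (Stx1a), with 8 higher, 3 lower and 0 called.

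Vamp2, the vesicle SNARE of fast release, read 12.34, 12.36 and 12.33 in control saline and 12.36, 12.18 and 12.39 in mutant saline. After cocaine it ran from 11.96 through a median of 12.22 to 12.37 in controls and from 12.05 through 12.37 to 12.48 in mutants. The low control values were the 3 Roman-numbered arrays, and the averaged cocaine difference was 0.05 ± 0.06 (SE). Vamp1, its close relative, differed by 0.17 ± 0.11. The 7 VAMP genes ran from -0.04 (Vamp4) to 0.17 (Vamp1).

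Among the genes that act on the SNARE complex, Nsf differed by -0.06 ± 0.06 (SE) and Cplx1 by 0.04 ± 0.06 after cocaine. Cplx2 differed by 0.24 ± 0.30, a wide error that goes with its spread. Its values were 10.69, 10.62 and 9.78 in control saline, and 9.01, 10.53 and 11.09 (lowest, median, highest) in control cocaine. Stxbp3, whose CRE letters are printed above, stayed between 7.68 and 8.06 in all 18 arrays.

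Differences of the vesicle protein genes were small too. Syn1, the other member with the CRE letters, differed after cocaine by -0.01 ± 0.07 (SE), Syn2 by -0.03 ± 0.14, Syp by 0.08 ± 0.12 and Sv2a by -0.02 ± 0.04. Among the docking genes, Rab3a differed by -0.02 ± 0.06, Rab3b by -0.16 ± 0.16, Rab3c by -0.03 ± 0.14 and Rims2 by 0.09 ± 0.15. Syt4, a synaptotagmin of dense-core and secretory vesicles, differed by 0.02 ± 0.06.

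**Figure D1:**
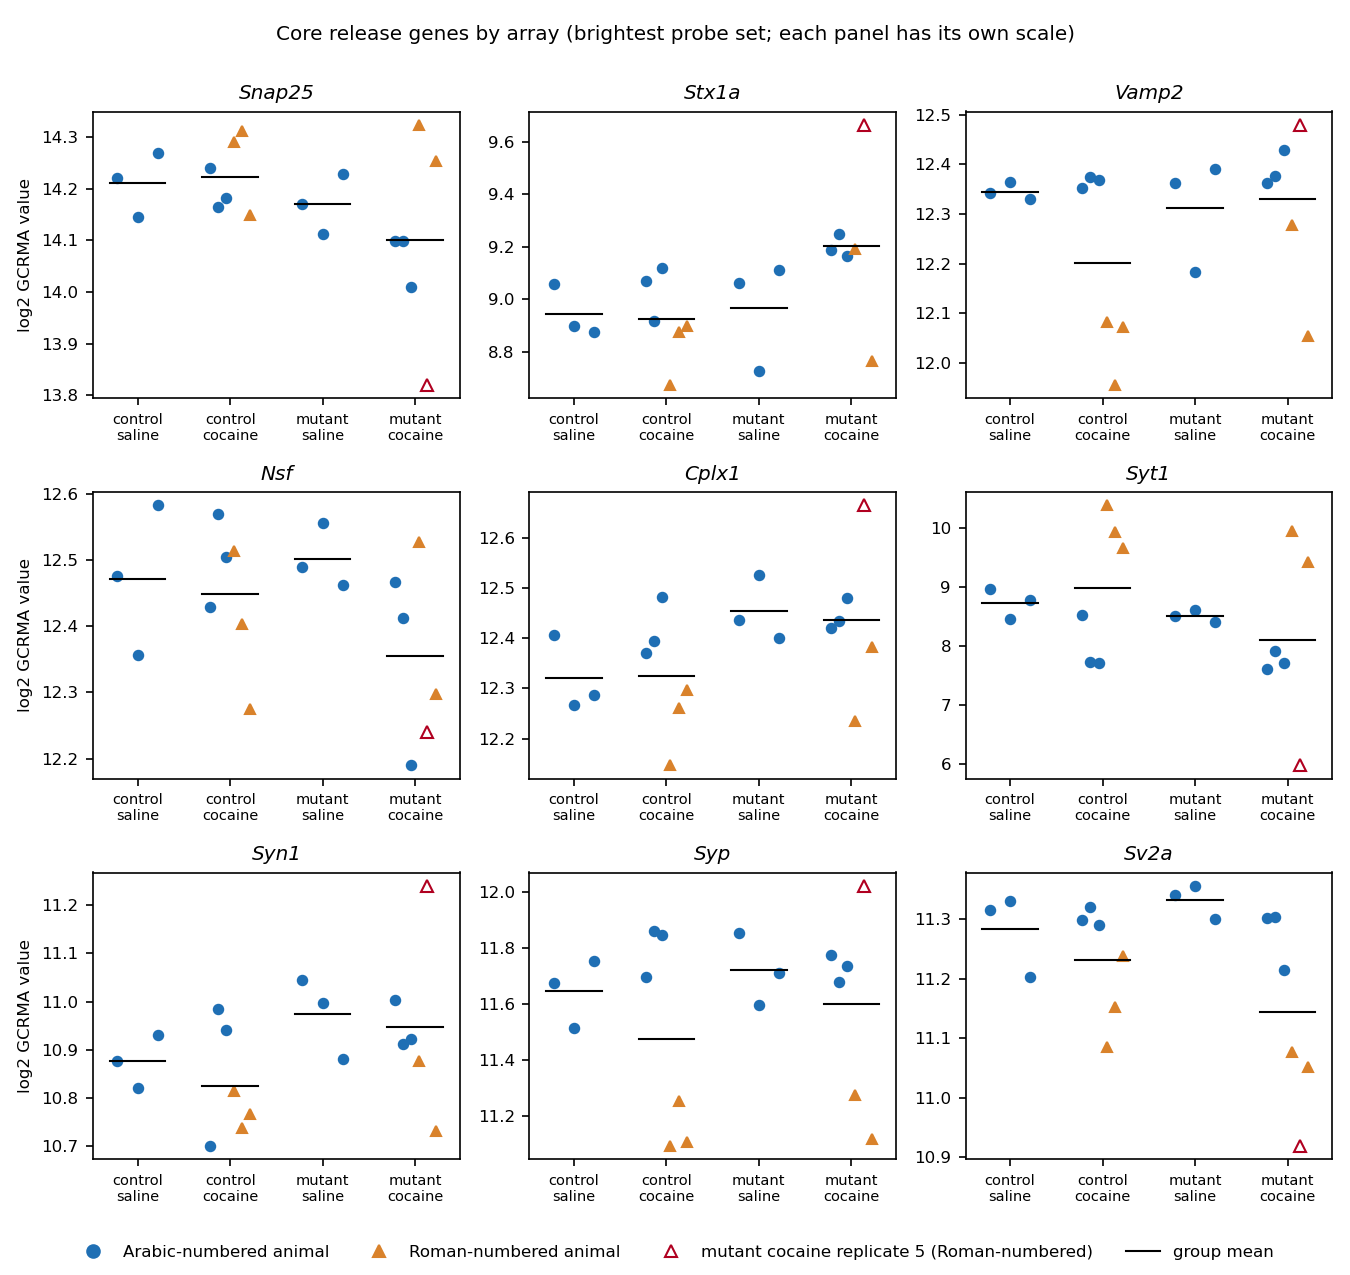
Log2 expression values of 9 core release genes in each of the 18 arrays, by group, with circles for Arabic-numbered and triangles for Roman-numbered animals and a bar at the group mean. The groups overlap in every panel, the Roman-numbered triangles of Syp lie below the circles except for mutant cocaine replicate 5 at 12.02, and those of Syt1 lie above except for the same array at 5.98.

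The precision of the design bounds these differences. For the averaged cocaine comparison, the 95% interval of the brightest probe set lay within a 1.5-fold change in either direction for 49 of 52 members. It lay within 2-fold for 50, the exceptions being Syt1 and Syt17. The bounds hold for that probe set alone, and dimmer ones of some genes differed more, such as 1 of Stx6 at -0.52. In control mice alone 48 members, and in mutant mice alone 43, were within 1.5-fold. Syt17 was the member nearest the expression limit, above log2 4 in 3 arrays, with Vamp5 above it in 14 and Stxbp6 in 17. The 3 Syt17 arrays were all cocaine arrays, control replicate 1 at 4.20 and mutant replicates 1 and 5 at 4.13 and 4.73, and its highest saline value was 3.60. It was thus kept through the cocaine arrays alone, and its cocaine difference below is a description. Just outside, Stxbp2 reached 3.68, Cplx3 3.64 and Rab3d 3.63. The other 10 genes not kept were Cplx4, Rab32, Rab37, Rab38, Stx19, Syn3, Syt6, Syt7, Syt8 and Syt10.

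The members of smallest p after cocaine, none past the threshold, were Syt17 at 0.51 ± 0.25 (SE), Stx18 at 0.09 ± 0.05 and Rab30 at 0.21 ± 0.11 when averaged over genotypes (limma adjusted p = 0.859 for each). In control mice they were Stx18 (0.10), Stx4a (0.20) and Vamp1 (0.19). In mutant mice they were Stx12 (-0.21), Rab30 (0.32) and Syt17 (0.69). Rab30 in mutants rests on replicate 2 at 7.21, with the other 5 mutant cocaine arrays between 6.45 and 6.61. Stx6 disagreed with itself in mutants, its 4 probe sets differing by -0.78 to 0.13.

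Between Camk4 mutant and control mice no member was called either. Mutant against control, limma called 0 of 52 members in saline mice, 0 in cocaine mice and 0 in both treatments averaged, where 0% of all kept probe sets were called in each of the 3 comparisons. At an unadjusted p under 0.05 there were 0, 8 and 4 members, or 0%, 15.38% and 7.69%, against 2.76%, 11.6% and 7.13% of all probe sets. Without mutant cocaine replicate 5 these member counts were 4, 2 and 3, so the count after cocaine fell from 8 to 2. The share of all probe sets at that cut was not computed without replicate 5. The ordinary linear model also called 0 members in each.

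After cocaine the smallest p among members was that of Stx12, an endosomal syntaxin. It read 10.58, 10.65 and 10.81 (lowest, median, highest) in control cocaine and 10.18, 10.49 and 10.63 in mutant cocaine arrays. The 2 groups overlapped between 10.58 and 10.63, and replicate 5 was the lowest mutant array. The difference was -0.21 ± 0.07 (SE; limma adjusted p = 0.427), and -0.14 ± 0.05 without replicate 5 (limma adjusted p = 0.593). After saline, Stx12 read 10.63, 10.48 and 10.75 in controls and 10.60, 10.73 and 10.62 in mutants.

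Syt12, a synaptotagmin without calcium-binding residues, read 6.06, 6.35 and 6.82 (lowest, median, highest) in control cocaine and 6.61, 6.77 and 7.00 in mutant cocaine, a difference of 0.36 ± 0.14. The groups overlapped, and the 3 Roman-numbered control arrays read 6.06, 6.48 and 6.08. Stx7 differed by -0.27 ± 0.11 and Stx1a by 0.28 ± 0.12, both with a limma adjusted p of 0.427. Mutant cocaine replicate 5 gave the lowest Stx7 value, 8.69, and the highest Stx1a value, 9.67. Without it Stx7 differed by -0.16 ± 0.08, Stx1a by 0.16 ± 0.08 and Syt12 by 0.33 ± 0.14. The 4 probe sets of Vamp3, a VAMP of recycling endosomes, differed by -0.63 to 0.13 in all arrays.

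Averaged over treatments, the smallest p values belonged to Cplx1 at 0.12 ± 0.05 (SE), Stx5a, a Golgi syntaxin, at 0.17 ± 0.07 and Syt2, a fast calcium sensor, at 0.31 ± 0.14 (limma adjusted p = 0.679 for each). Without replicate 5 these were 0.09 ± 0.03, 0.13 ± 0.05 and 0.25 ± 0.12. The 2 other Cplx1 probe sets differed by 0.08 ± 0.04 and -0.15 ± 0.20. The 2 other Syt2 probe sets differed by 0.14 ± 0.11 and -0.20 ± 0.09. After saline the smallest p values belonged to Stx17 (0.31), Syt2 (0.43) and Rab3a (0.15), and the other Syt2 probe sets differed by 0.28 and -0.30. Core members differed little between genotypes when averaged: Snap25 by -0.08, Vamp2 by 0.05, Nsf by -0.03, Syn1 by 0.11, Syp by 0.10 and Sv2a by -0.02. The 95% interval of 49 of 52 members was within 1.5-fold.

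The response to cocaine did not differ detectably between genotypes. The interaction, mutant response minus control response, called 0 of 52 members by limma, with 0% of all probe sets called and 0 members at an unadjusted p under 0.05, against 2.68% of all probe sets. Stx12 (-0.24 ± 0.12), Sv2a (-0.14 ± 0.07) and Stx17 (-0.28 ± 0.18) had the smallest p (limma adjusted p = 0.992 for each). This was the least precise comparison, with 34 of 52 intervals within 1.5-fold.

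**Figure D2:**
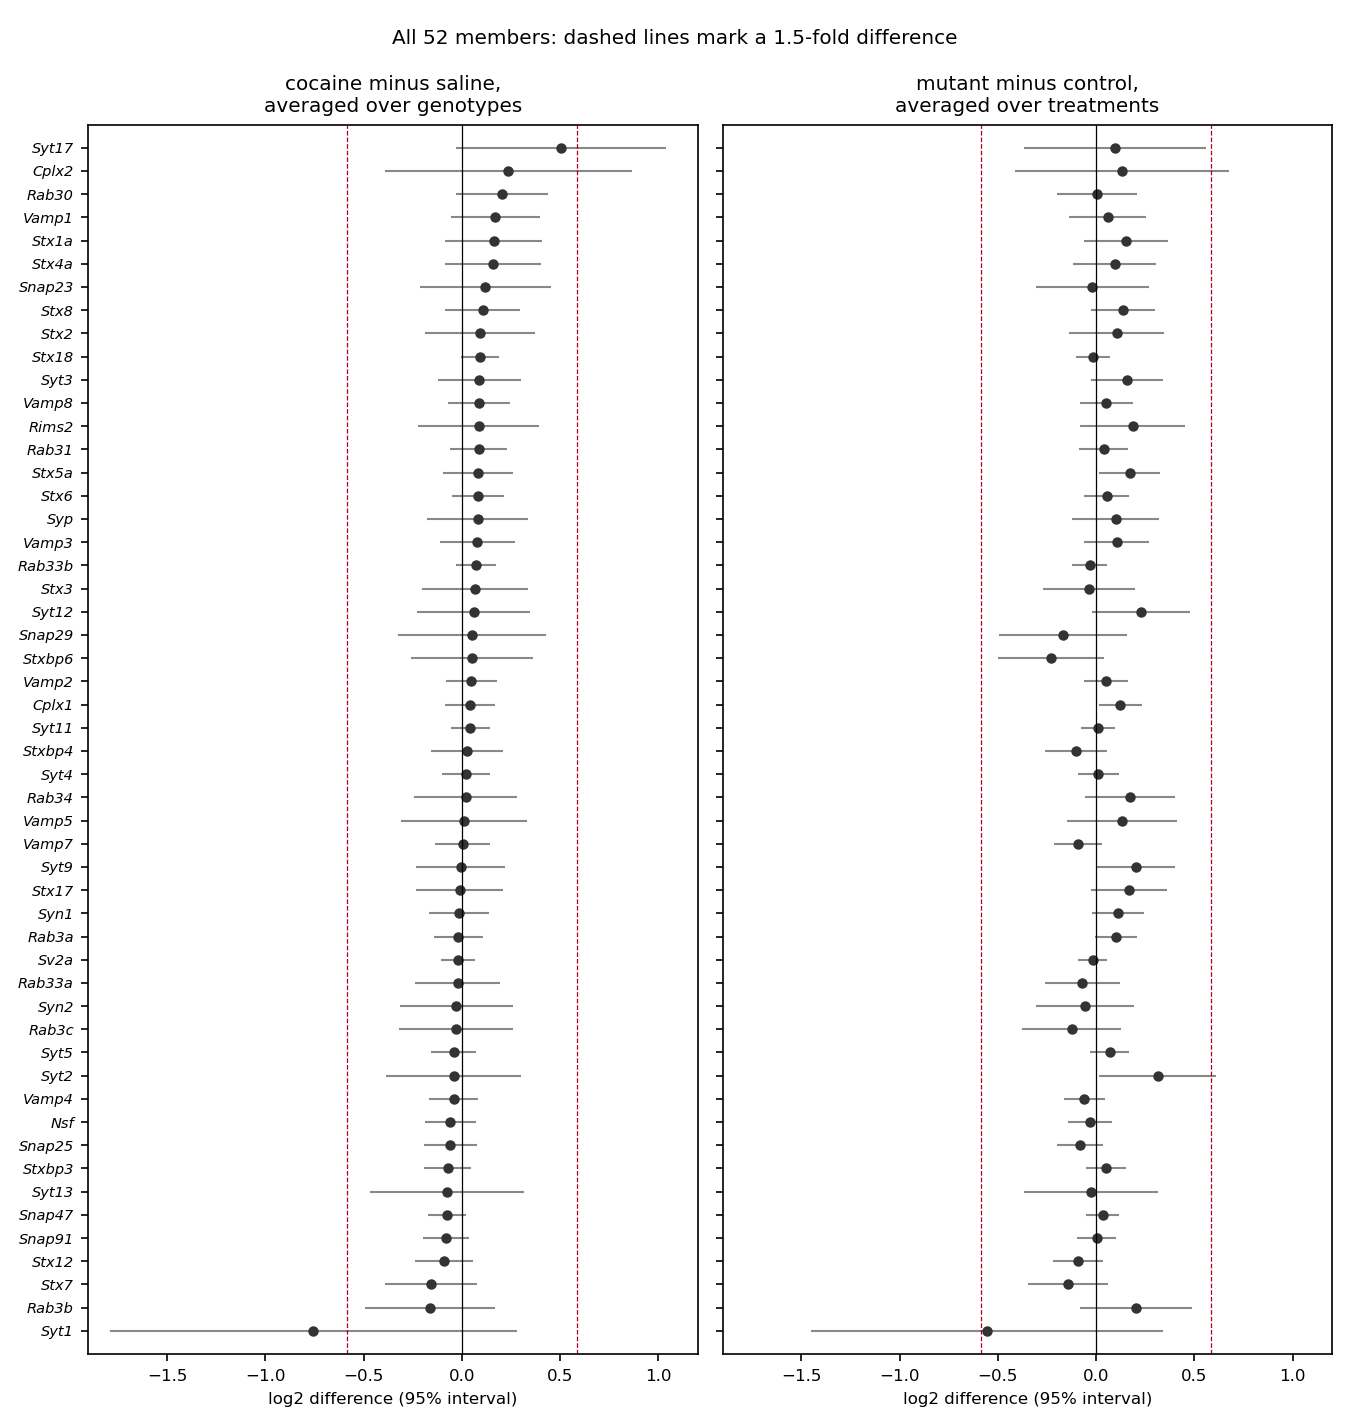
Log2 differences of the 52 members with 95% intervals, for cocaine minus saline (left) and mutant minus control (right), ordered by the left panel, with dashed lines at a 1.5-fold difference. In each panel 49 of 52 intervals stay inside the dashed lines, and Syt1 has the widest.

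Other genes of the vesicle cycle, 62 listed for priming, SNARE recycling, endocytosis, vesicle membrane and transport, gave the same count. Of these, 46 were kept, and limma called 0 in each cocaine and genotype comparison. Their median differences were -0.003 log2 for cocaine and 0.04 for genotype, each averaged. Between genotypes the smallest p belonged to Pacsin1, an endocytic adaptor, at 0.20 ± 0.04 (SE; limma adjusted p = 0.465). Synpr, a vesicle membrane protein related to synaptophysin, differed by -0.19 ± 0.06 (limma adjusted p = 0.679). For cocaine the smallest p values were those of Atp6v1b2, a subunit of the proton pump, at -0.11 ± 0.05 and Cltc, the clathrin heavy chain, at -0.14 ± 0.07 (limma adjusted p = 0.859 for each).

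Syt1, the calcium sensor of fast synchronous release, had the largest spread of all members, with an SD of 1.07 log2 over the 18 arrays against a median of 0.18 over members and 0.16 over all kept genes. It read 8.96, 8.46 and 8.78 in control saline and 8.52, 8.61 and 8.40 in mutant saline. The Arabic-numbered cocaine arrays read 8.53, 7.73 and 7.71 in controls and 7.61, 7.91 and 7.71 in mutants. The Roman-numbered cocaine arrays read 10.39, 9.93 and 9.65 in controls and 9.95, 5.98 and 9.42 in mutants. Thus 5 of 12 cocaine arrays lay above every saline array, all of them Roman-numbered, and 6 lay below every saline array, 5 Arabic-numbered and mutant cocaine replicate 5.

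The averaged cocaine difference of Syt1 was -0.76 ± 0.49 (SE; limma adjusted p = 0.859) in all 18 arrays. Saline was given only to Arabic-numbered animals, so with the numbering series as a term this averaged difference is set by the Arabic-numbered arrays, and the error takes in all arrays. Without mutant cocaine replicate 5 it was -0.76 ± 0.15 (limma adjusted p = 0.0163), and in the 12 Arabic-numbered arrays alone -0.76 ± 0.14 (limma adjusted p = 0.0155). Without the numbering term it was -0.08. Syt1 was the only brightest probe set of a member called without replicate 5 or in the Arabic-numbered arrays alone, where 2.86% and 3.39% of all probe sets were called.

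Syt1 was also set beside the actin difference. With the actin difference as a term, its cocaine difference was -0.44 ± 0.20 (SE; limma adjusted p = 0.725), and with that term and without replicate 5 it was -0.70 ± 0.18 (limma adjusted p = 0.0613). Across the 12 Arabic-numbered arrays, Syt1 and the actin difference had a Pearson r of -0.61 (permutation p = 0.034, Benjamini-Hochberg adjusted over the 87 member probe sets 0.269) and a Spearman rho of -0.49 (permutation p = 0.111). Without the 2 arrays farthest from the median actin difference r was -0.36. The part of RNA quality in the Syt1 values was not tested beyond these fits.

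Counting all 87 member probe sets, 6 were lower after cocaine in the Arabic-numbered arrays alone (6.9%, with 2.62% of all probe sets called lower), and 0 were higher. Without replicate 5 there were 5 (5.75%, with 2.11% of all called lower). They belonged to Syt1, Cplx1, Nsf, Stx6, a syntaxin of the trans-Golgi network, and Syt11, which acts in vesicle recycling. For Cplx1, Nsf, Stx6 and Syt11 the called probe set was a dimmer one of the gene, and these genes were singled out after their values were seen.

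The brightest probe sets of those 4 genes did not follow. In the Arabic-numbered arrays the dimmer Cplx1 probe set differed by -0.35 ± 0.07 (SE; limma adjusted p = 0.0155) and the brightest by 0.04 ± 0.04. For Stx6 the values were -0.52 ± 0.07 (limma adjusted p = 0.00496) and 0.08 ± 0.05. For Syt11 they were -0.27 ± 0.05 (limma adjusted p = 0.0193) and 0.04 ± 0.05, and for Nsf -0.19 ± 0.04 (limma adjusted p = 0.0266) and -0.06 ± 0.05. Probe sets of 1 gene therefore gave different answers, and Syt1 alone of the 5 passed the threshold in both of its probe sets, the second at -0.46 ± 0.11 (limma adjusted p = 0.0457). In the 12 Arabic-numbered arrays, Pearson r between dimmer probe set and actin difference was -0.50 (Cplx1), -0.54 (Stx6), -0.53 (Syt11) and -0.44 (Nsf). Their permutation p, Benjamini-Hochberg adjusted over the 87 member probe sets, was 0.35 to 0.47. For the brightest probe sets r was 0.31, 0.00, -0.34 and 0.42 in the same order. The part of RNA quality in these differences was not tested.

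The dimmer Stx6 probe set shows the pattern by array. It read 7.07, 6.83 and 6.95 in control saline and 6.89, 6.90 and 6.76 in mutant saline. Arabic-numbered cocaine arrays read 6.58, 6.37 and 6.30 in controls and 6.38, 6.40 and 6.23 in mutants, all below every saline array. Roman-numbered arrays read 7.92, 7.49 and 7.19 in controls and 7.45, 4.65 and 7.09 in mutants, and all except replicate 5 were above every saline array.

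**Figure D3:**
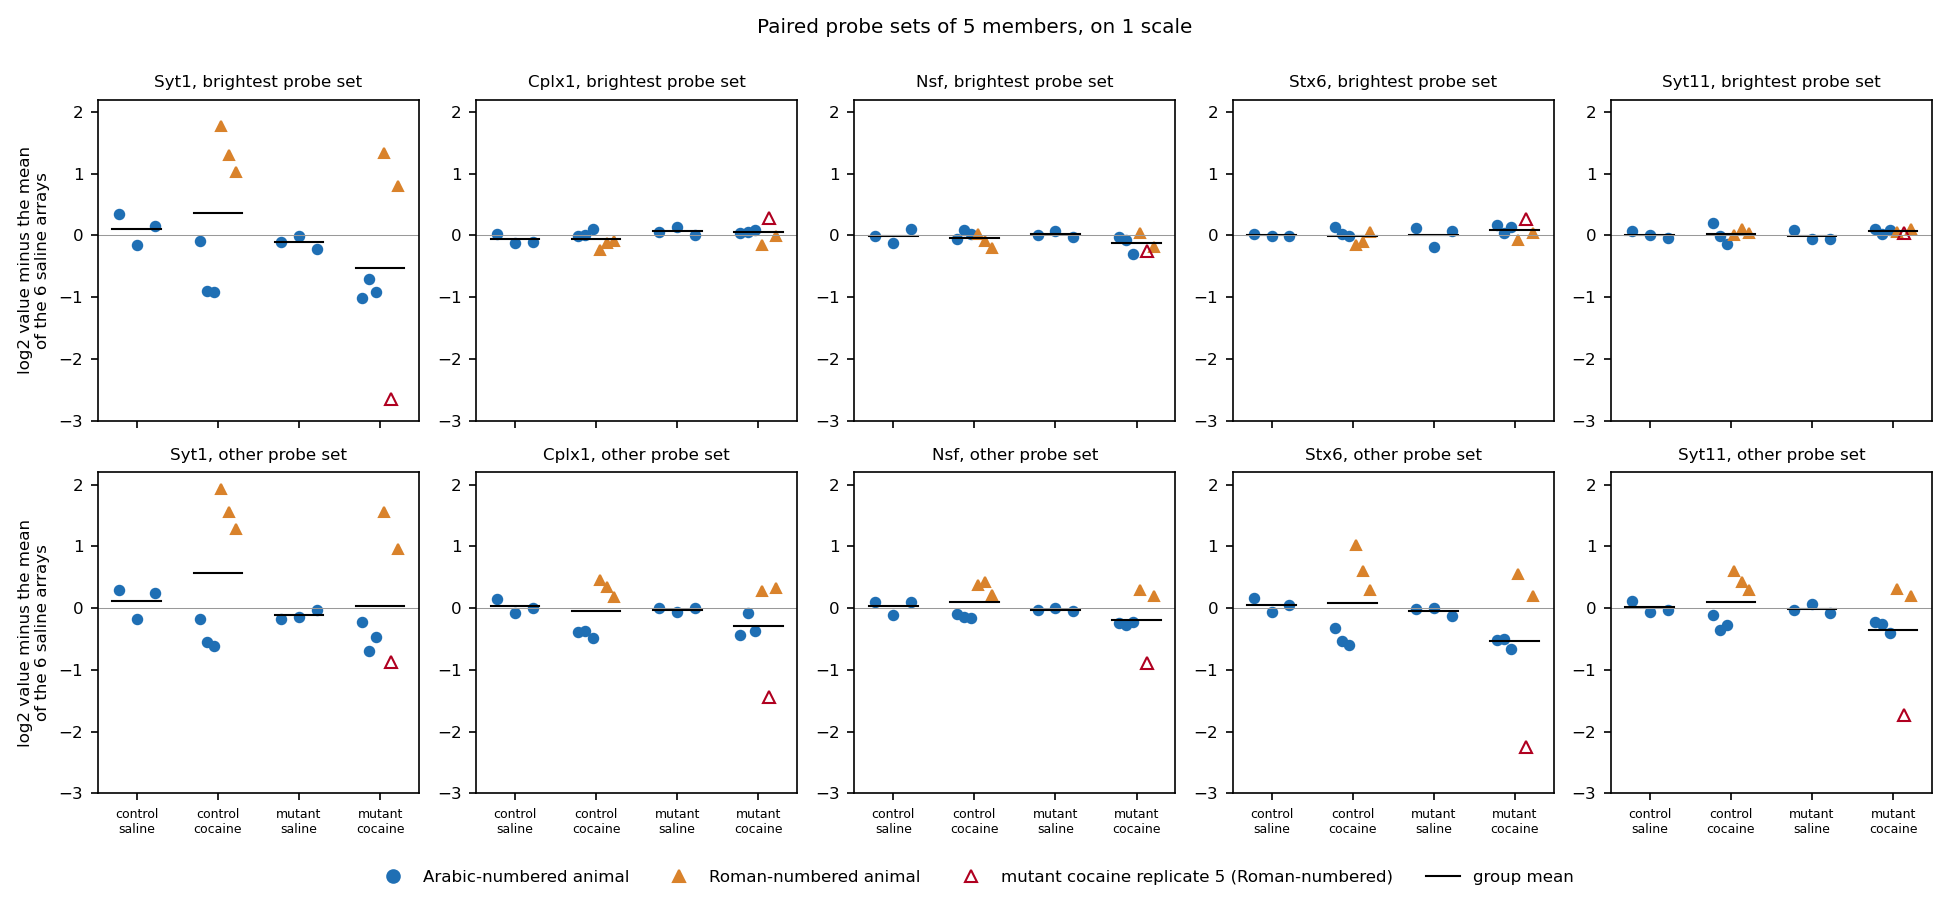
Log2 values of the brightest probe set (top) and another probe set (bottom) of Syt1, Cplx1, Nsf, Stx6 and Syt11, each relative to the mean of its 6 saline arrays, on the same vertical scale. Both Syt1 probe sets, but only the other probe sets of the 4 remaining genes, show low Arabic-numbered cocaine arrays (circles), high Roman-numbered arrays (filled triangles) and a low mutant cocaine replicate 5 (open triangle).

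The numbering series was the comparison in which members did pass. Roman- against Arabic-numbered arrays, limma called 4 of 52 members, all lower, where 6.16% of all probe sets were called, 2.54% higher and 3.62% lower. The member share of 7.69% is near that background. All 4 Roman-against-Arabic calls are set by cocaine animals, since no saline animal has a Roman number.

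Syp, synaptophysin, read 11.09, 11.25 and 11.11 in the Roman-numbered control arrays and 11.28, 12.02 and 11.12 in the mutant ones. The Arabic-numbered arrays ran from 11.51 to 11.86, so 5 of 6 Roman-numbered arrays lay below all of them and replicate 5 lay above. The difference was -0.45 ± 0.12 (SE; limma adjusted p = 0.0394). Sv2a, the vesicle glycoprotein, differed by -0.20 ± 0.04 (limma adjusted p = 0.012), Stx18, a syntaxin of the endoplasmic reticulum, by -0.19 ± 0.05 (limma adjusted p = 0.0269) and Vamp2 by -0.22 ± 0.06 (limma adjusted p = 0.0423). The 5 Stx18 probe sets ran from -0.19 to 0.20. Over the alternatives run, Sv2a kept its call in 28 and lost it in 1, Stx18 kept it in 23 and lost it in 6, and Syp kept it in 14 and lost it in 15. Vamp2 kept its call in 7, lost it in 21 and changed sign in 1.

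Without mutant cocaine replicate 5 the count rose to 13 of 52 members, where 29.8% of all probe sets were called. Of these, 4 were higher: Syt1 by 1.97 ± 0.16 (SE), Rab3c by 0.34 ± 0.12, Vamp7 by 0.21 ± 0.07 and Snap25 by 0.13 ± 0.04. The 9 lower were Syp (-0.60 ± 0.06), Syt3 (-0.30), Vamp2 (-0.28), Stx8 (-0.24), Rab3a (-0.23), Stx18 (-0.21), Sv2a (-0.17), Rab31 (-0.17) and Cplx1 (-0.16). Actin differed between the same arrays. Without replicate 5 the actin difference ran from 1.57 to 1.91 in Roman-numbered and from 1.89 to 2.55 in Arabic-numbered arrays. Actin and numbering series can thus hardly be told apart here. With the actin difference as a term and replicate 5 left out, limma called 1 of the 13, Syt1 at 1.78 ± 0.38 (SE; limma adjusted p = 0.0261), where 3.12% of all probe sets were called. Standard errors were larger in that fit. Syp was then -0.49 ± 0.13 (limma adjusted p = 0.0634), Vamp2 -0.24 ± 0.11 and Sv2a -0.22 ± 0.08, while Syt3 was at 0.00 and Rab3c at -0.15.

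**Figure D4:**
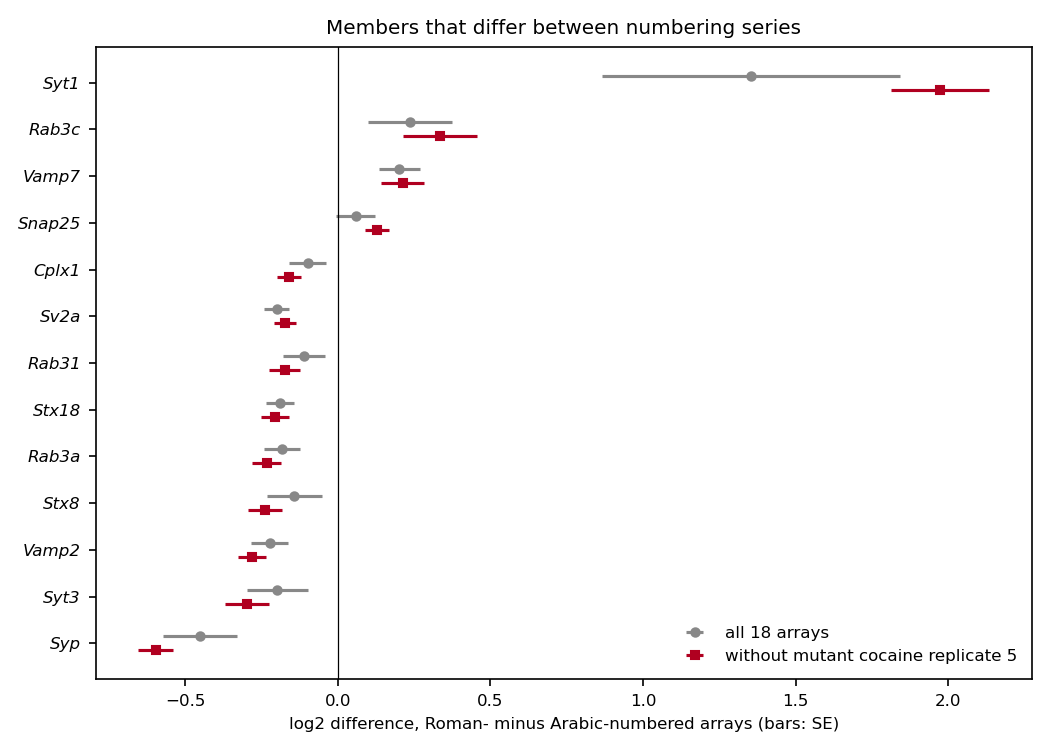
Log2 differences, Roman- minus Arabic-numbered arrays, with SE bars, for the 13 members called when mutant cocaine replicate 5 is left out (squares), beside the same members in all 18 arrays (circles). Syt1 moves from 1.35 to 1.97 and Syp from -0.45 to -0.60 when that array is left out.

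Direction in this comparison differed between probe sets of the same gene. Without replicate 5, 17 of 87 member probe sets were higher and 10 lower. Of the 17 higher, 4 were the brightest of their gene and 13 were others, and of the 10 lower, 9 were the brightest and 1 was another. The split was alike over all kept genes, where 6.78% of brightest probe sets were higher and 18.9% lower, and 27.2% of the others were higher and 10.9% lower. Vamp2 is an example, with -0.28 ± 0.05 (SE) in the brightest probe set and 0.34 ± 0.06 in the other, both called. For Cplx1 the values were -0.16 ± 0.04 and 0.68 ± 0.07, and for Rab31 -0.17 ± 0.05 and 1.30 ± 0.16. The other Rab31 probe set was above log2 4 only in Roman-numbered arrays, at 4.30 to 5.21, and reached 3.95 in Arabic-numbered ones. It was thus kept through the Roman-numbered arrays alone, and its difference, counted among the 17 higher, is a description. A direction for Vamp2 or Cplx1 between the numbering series thus depends on the probe set read.

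Among the other vesicle cycle genes, 1 of 46 was called between the numbering series, Pacsin1 at -0.45 ± 0.05 (SE; limma adjusted p = 0.000565). Of the neuron markers, 3 of 11 were called lower in Roman-numbered arrays (Rbfox3, Tubb3 and Eno2), where 3.62% of all probe sets were called lower. Drd2, 1 of 9 kept medium spiny neuron markers, and Nos1, 1 of 7 kept GABAergic interneuron markers, were called lower too. The other kept markers of these lists were not called. In the cocaine and genotype comparisons 0 genes of these marker lists, or of those for glia, endothelium and other neurons, were called.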

How the data were processed

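The authors deposited log2 expression values for 22690 probe sets in 18 arrays, made with GCRMA in R 2.4.1 per the submitters' processing notes. No source used here gives the GCRMA settings. Its equalisation of arrays hides changes in total signal, and dim probe sets are compressed. Probe sets above log2 4 in at least 3 arrays were kept, 64 control probe sets were left out, and symbols came from GEO's platform annotation. limma 3.58.1 in R 4.3.3 fitted group and numbering series, with a variance trend, two-sided moderated tests and Benjamini-Hochberg adjustment over 12674 probe sets (threshold 0.05). The fit was tested on simulated data. Named members are core release genes, those called in a comparison (otherwise the 3 with the lowest p) and members whose probe sets disagree; exceptions are stated. Members and lists were chosen with earlier results of these data known. Replicates are separate animals per the labels' titles. The number of arrays limits precision. Sv2b, Sv2c, Rims1 and Rims3 were not analysed here. Same-numbered replicates were checked for pairing: 8 of 21 pairs correlated above 0.1, so they were not paired. Each block of consecutive Arabic animal numbers held an animal of every group. These blocks were not in the main fit, and a fit with them is given below as an alternative.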

Additional observations from a re-analysis of the deposited data

Results flagged for a closer look

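In groups of 6 arrays, a single array stood far from the others for 11 of 104 sets of values, where chance gives about 1 in 20 for independent sets. These sets share the same cocaine arrays of both numbering series, so they are not independent. The share over all kept genes was not computed, so the count is no result about the members. Mutant cocaine replicate 5, the array with the highest actin difference, accounts for 4: Rims2 at 10.89 against 9.86 to 9.99 in the other arrays, Vamp3 at 10.65 against 9.98 to 10.15, Syn2 at 9.84 against 10.79 to 11.00, and Stx7 at 8.69 against 9.12 to 9.38. In control cocaine, replicate 4 was lowest for Cplx2 (9.01, others 10.43 to 11.09) and for Syn2 (10.42, others 10.79 to 10.93). Replicate 5 was highest for Rab3c (8.96, others 8.20 to 8.47), replicate 1 for Syt2 (7.03, others 6.10 to 6.44) and replicate 3 for Rab30 (6.71, others 6.44 to 6.52). Rab30 was also highest in mutant cocaine replicate 2 (7.21, others 6.45 to 6.61). The remaining one was Rab33a in control cocaine replicate 2 (8.62, others 8.99 to 9.17).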

How the results depend on the processing

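Members called stayed at 0 in the cocaine comparisons within each genotype, the genotype comparisons and the interaction under every alternative run. For cocaine averaged over genotypes the count went from 0 to 1 (Syt1) with Arabic-numbered arrays alone and with the replicate block and mutant cocaine replicate 5 left out, an alternative added after seeing the data. Leaving out each array in turn gave 0 to 1. Between numbering series the count of 4 (6.16% of all probe sets called) became 2 of 65 members with no filter (2.12%) and 2 with an ordinary linear model (4.27%). It became 13 with array weights (28.7%), 6 with the actin term (7.21%) and 1 with the actin term without replicate 5 (also added, 3.12%). With the replicate block without replicate 5 it was 13, a fit whose share over all probe sets is not given here. Leaving out each array gave 1 to 13. The 13 came without mutant cocaine replicate 5 (29.8% of all probe sets called). The 1 came without mutant cocaine replicate 4 (2.51%) or without control cocaine replicates 3, 4 or 5. For these control replicates the share over all probe sets is not given here, so the member counts have no background beside them. The replicate block alone gave 3 (6.68% of all probe sets called) and changed no other count. The replicate numbers do not pair the arrays, and 8 of 18 correlated best with their own number. Blocks of consecutive animal numbers had 11 of 21 pairs above 0.1. They gave 3 members between numbering series (7.66% of all probe sets called) and 0 elsewhere. Calls over all probe sets for cocaine in control mice then went from 14 to 0, and averaged from 28 to 16. Vamp1 in control mice turned to -0.0124 without control saline replicate 2 and ran up to 0.2911 when other arrays were left out, Stx18 averaged over genotypes to -0.0036 without the numbering term, and Vamp2 between numbering series to 0.0564 with the mean over its probe sets. The cause was not tested.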
